A study of Mus musculus with 6 samples.

Results

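The transporter genes described here are the ATP-binding cassette (ABC) genes of subfamilies A to G except Abcb11, the organic anion transporting polypeptide genes (SLCO) and the SLC22 genes. They were chosen by gene name, and the names were taken from the deposited table of mouse liver. The choice took 90 of the 55573 genes in the table, of which 49 were ABC, 15 SLCO and 26 SLC22 genes. Livers of 2 genotypes were compared, each with 3 libraries, and all mice were of generation 3. The DKO group carried the deletions mTR-/- and Wrn-/-, which remove the telomerase RNA and a RecQ helicase. The p21TKO group carried p21-/- together with the same mTR-/- and Wrn-/- deletions, so the control livers were themselves those of telomerase-deficient mice. The labels name neither sex nor strain, and every title carries the code 2M, which no label explains. They also do not tie each replicate to its own mouse, and the p-values below therefore cover only the spread from library to library, which may be technical.

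Hepatocytes take drugs, bile acids, bilirubin and hormones from blood through SLCO and SLC22 carriers in the sinusoidal membrane. ABC pumps use ATP to move conjugates, phospholipids and sterols across the canalicular membrane into bile, or back into blood across the basolateral membrane. Other ABC genes serve cell cholesterol and lipid export, peroxisomes and mitochondria, and the ABCE and ABCF proteins have no membrane part and act on ribosomes. In rodent liver several of these carriers differ between males and females, and several fall during inflammation.

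Values were deposited as FPKM, reads scaled to transcript length and library size, which allows levels to be compared between genes. The FPKM denominators lay between 19363284 and 27061291 reads per library. DKO replicates 2 and 3 and p21TKO replicate 1 held reads of 4 Y-linked genes (2251, 2756 and 1987 reads), and the other libraries held 0, so each genotype mixed both kinds. Of 10 male-biased liver genes 10 were higher in all libraries with Y-linked reads, and 11 of 12 female-biased genes were lower in all of them. The libraries labelled p21TKO 2 and 3 stood apart from the rest on the first principal component, which held 57.2% of the variance. The summed level of 14 acute phase genes was 12500 to 13700 FPKM in DKO and 7670, 71200 and 40728 FPKM in p21TKO 1 to 3. The 11 neutrophil genes summed to 10.6 to 29.0 FPKM in DKO and to 24.9, 559 and 221 FPKM in p21TKO 1 to 3. The 8 hepatocyte markers summed to 40900 to 59000 FPKM, with Alb alone at 24400 to 37500 FPKM. Alb, Serpina1a and Tat were higher, and Apob was lower, in every p21TKO library than in every DKO library. The other hepatocyte markers overlapped. Cdkn1a, the p21 gene, was read in all libraries (32 to 137 reads in DKO and 97 to 901 in p21TKO). Those reads cover all exons and cannot check the deletion, so directions rest on the labels.

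No transporter gene passed the test for genotype, but most stood lower in p21TKO. Genes with a mean of at least 1 FPKM were tested on log2(FPKM + 1), a scale that understates differences of low genes, and 43 of the 90 transporter genes met that filter. The limma test with Benjamini-Hochberg adjustment over 9538 genes called 0 transporter genes at an adjusted p under 0.05, beside 7 genes of all tested (0.0734%), and the smallest limma adjusted p among the 43 was 0.515. An unadjusted limma p under 0.05 was met by 11 of the 43 (25.6%), beside 9.38% of all tested genes, and limma voom on recovered reads gave 13 at that level and 0 past adjustment. The log2 difference, p21TKO minus DKO, was below 0 for 30 and above 0 for 13 of the 43, and its median was -0.39, beside 0.00 over all tested genes. In 17 of the 43 (39.5%) the 3 p21TKO values did not overlap the 3 DKO values, beside 15.4% of all tested genes. Of these 16 were lower in p21TKO (37.2%, beside 8.49%), and Slco2a1 alone was higher. In liver tissue, fewer cells of a type and less RNA per cell cannot be told apart.

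The size of the shift followed the libraries as well as the genotype. The summed level of all 90 genes was 1263, 923 and 1229 FPKM in DKO 1 to 3 and 944, 732 and 499 FPKM in p21TKO 1 to 3. By this sum p21TKO 1 lay just above the lowest DKO library, and p21TKO 3 was the lowest. Gene by gene, p21TKO 1 lay below all DKO libraries for 23 of the 43 tested genes, within their range for 13 and above them for 7. Both p21TKO 2 and 3 lay below all DKO libraries for 22 of the 43. The lowest of the 6 values fell in p21TKO 3 for 18 of the 43 tested genes. These counts by library were not made over all tested genes. Within the libraries without Y-linked reads the median log2 difference was -0.65, within those with them it was -0.15, and with a term for Y-linked reads it was -0.42. Each contrast within 1 kind of library, here and for single genes below, has a single library on 1 side. That library is DKO 1 among those without Y-linked reads and p21TKO 1 among those with them. The difference was below 0 in both kinds of library for 23 of the 43, beside 2620 of all 9538 tested genes. The summed acute phase and neutrophil levels were high in the same libraries, p21TKO 2 and 3. Not every listed gene was high in p21TKO 3. Saa1 had 176 FPKM there and 399 FPKM in DKO 2, Saa2 had 86.0 and 179 FPKM, and Csf3r 0.768 and 0.927 FPKM. Fga, at 5860 and 1080 FPKM, and S100a8, at 77.5 and 8.10 FPKM, were high there. The part of these genes in the transporter values was not tested.

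**Figure D1:**
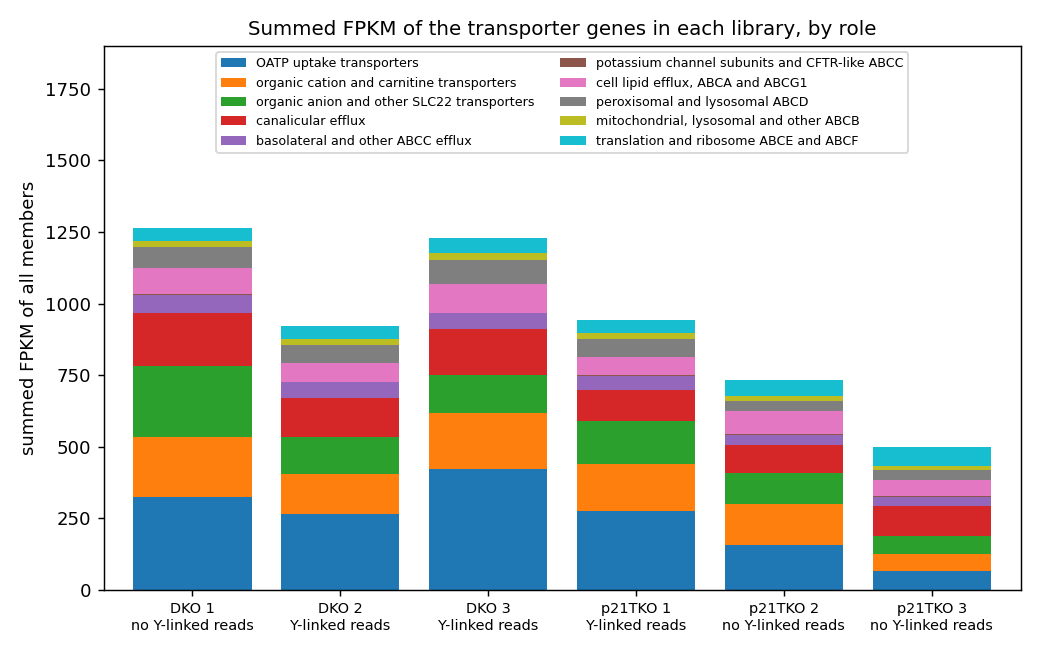
Bars stack the summed FPKM of the transporter genes by role for each library, with the presence of Y-linked reads written under it. The DKO libraries reach 923 to 1263 FPKM and the p21TKO libraries 499 to 944 FPKM, with the OATP uptake carriers as the widest band in every library except p21TKO 3.

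Among the uptake carriers of the SLCO family, 5 of 15 genes were tested. Slco1b2, the main hepatocyte carrier for bile acids, bilirubin and statins, was the most abundant transporter gene in DKO, with 245, 156 and 275 FPKM in DKO 1 to 3 and 148, 110 and 24.5 FPKM in p21TKO 1 to 3. All p21TKO values lay below all DKO values, but p21TKO 1 was only just below DKO 2 and p21TKO 3 was far under every other library. The means were 225 ± 61.8 and 94.0 ± 63.1 FPKM (SD, n = 3 each), and their log2 difference was -1.55 (SE 0.67), short of the threshold at a limma adjusted p of 0.523. Slco2b1, a broad carrier also found outside the liver, had the same low outlying library, with 22.8, 14.9 and 19.3 FPKM in DKO and 17.0, 19.3 and 4.66 FPKM in p21TKO.

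Slco1a1 and Slco1a4, neighbouring genes on chromosome 6 for related steroid and bile acid carriers, split by Y-linked reads in opposite directions. Neither passed for the term for Y-linked reads (limma adjusted p = 0.229 for Slco1a1 and 0.181 for Slco1a4). Slco1a1 had 22.6, 75.5 and 113 FPKM in DKO 1 to 3 and 97.3, 0.619 and 0.406 FPKM in p21TKO 1 to 3. The libraries with Y-linked reads were the 3 highest, and p21TKO 2 and 3 were at trace level while DKO 1 was not. Its log2 difference between genotypes was -3.96 within libraries without Y-linked reads and 0.07 within those with them, a contrast that did not pass as an interaction (limma adjusted p = 0.0816). Slco1a4 had 31.2, 15.6 and 12.4 FPKM in DKO and 9.04, 20.8 and 27.5 FPKM in p21TKO. Here the libraries without Y-linked reads were the 3 highest, and the genotypes overlapped. Transcripts of both genes match over 1845 bases at 86.3% identity.

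Slco2a1 (ENSMUSG00000032548, chromosome 9, 102988712 to 103096002), the prostaglandin transporter, was the tested SLCO gene with a log2 difference above 0. It had 3.93, 3.44 and 3.17 FPKM in DKO and 5.34, 6.42 and 8.92 FPKM in p21TKO, with every p21TKO value above every DKO value. Its log2 difference was 0.79 (SE 0.20), short of the threshold after adjustment (limma adjusted p = 0.515). Beside it, 10 of 10 sinusoidal endothelial markers had a log2 difference above 0, none past the test, and for all of them the genotypes overlapped. They summed to 24.3, 13.7 and 15.6 FPKM in DKO 1 to 3 and to 9.46, 83.5 and 42.6 FPKM in p21TKO 1 to 3. All 10 were lower in every library with Y-linked reads than in every library without. Within libraries with Y-linked reads 9 of the 10 were lower in p21TKO, whereas the log2 difference of Slco2a1 was 0.56 there. The part of these cells in the Slco2a1 values was not tested.

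Among the organic cation and carnitine carriers of the SLC22 family, Slc22a5 and Slc22a4 separated by genotype and neither passed the test. Slc22a5 (ENSMUSG00000018900, chromosome 11, 53864542 to 53891660), the carnitine transporter OCTN2, had 10.4, 8.40 and 13.1 FPKM in DKO and 5.97, 5.69 and 6.33 FPKM in p21TKO. The 3 p21TKO libraries lay close together and under all DKO libraries, with means of 10.6 ± 2.33 and 6.0 ± 0.321 FPKM (SD, n = 3 each). The log2 difference of -0.72 (SE 0.19, limma adjusted p = 0.515) was -0.71 within libraries without and -0.72 within libraries with Y-linked reads, and leaving out 1 library at a time gave -0.86 to -0.57. Its transcript is 90.2% identical to that of Slc22a21 over 3002 bases, and Slc22a21 had at most 27 reads in a library.

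Slc22a4, the ergothioneine carrier OCTN1, was low and also separated, with 1.73, 1.2 and 1.25 FPKM in DKO and 0.931, 0.495 and 0.420 FPKM in p21TKO. Slc22a3, the organic cation carrier OCT3, was between 0.744 and 1.72 FPKM.

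**Figure D2:**
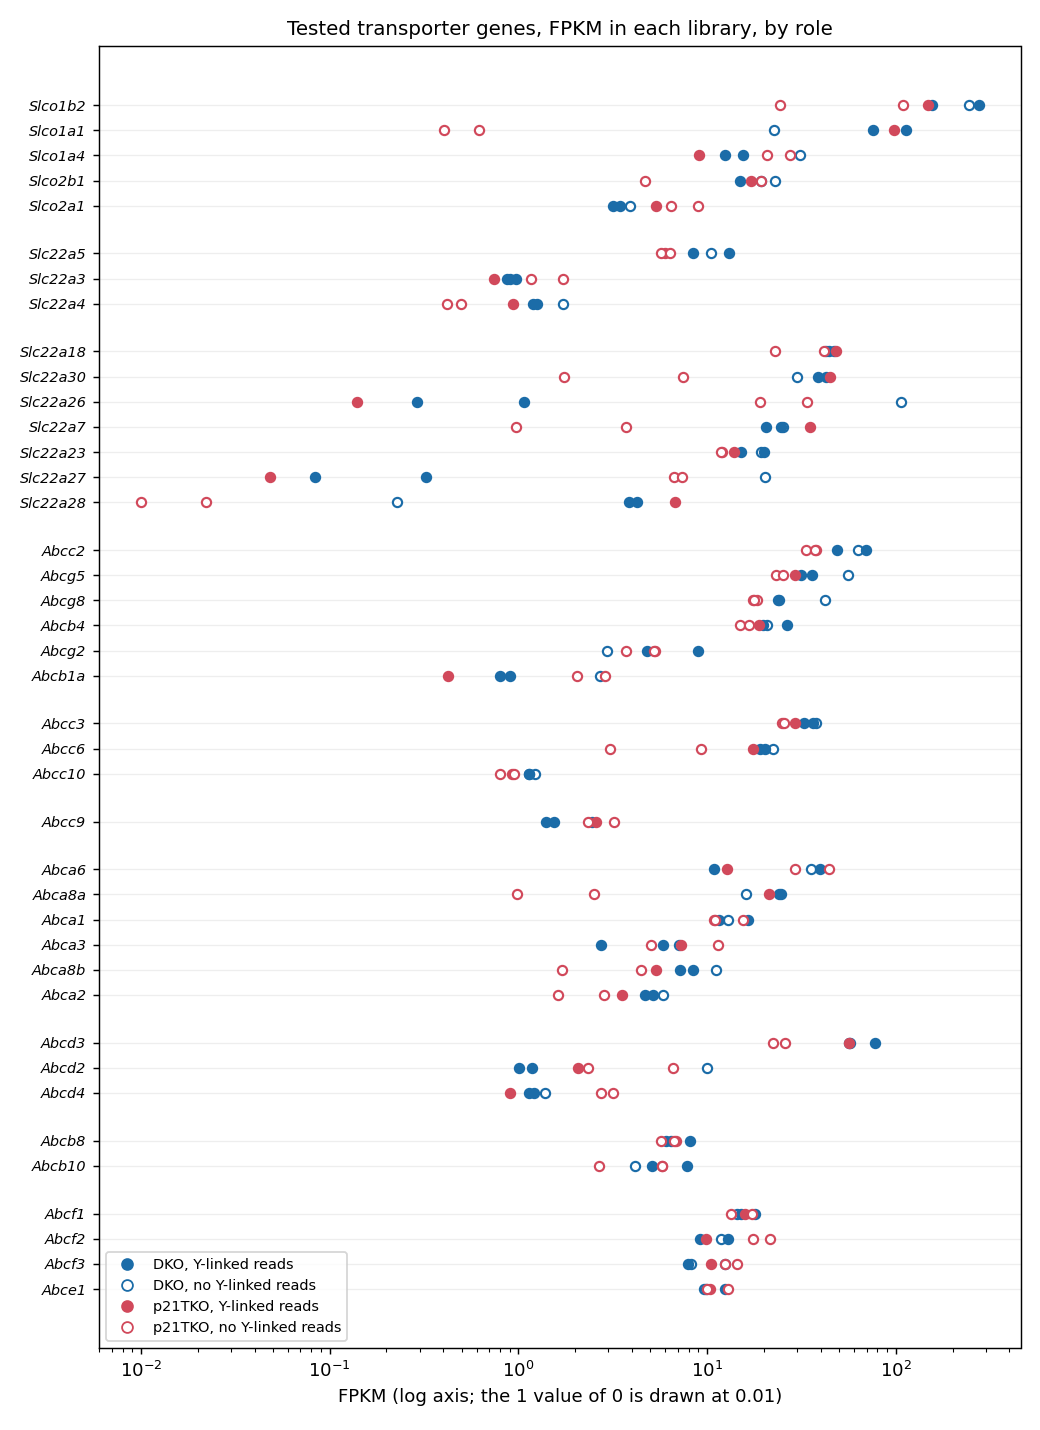
Each row is a tested transporter gene (40 of the 43), grouped by role, and each point is the FPKM of 1 library on a log axis; blue marks DKO, red p21TKO, filled points libraries with Y-linked reads and open points those without. Slc22a5 and Abcc2 separate by colour, while Slc22a26, Slc22a27 and Slc22a28 separate by filling.

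In the organic anion branch of SLC22, neighbouring genes differed widely between libraries with and without Y-linked reads. Slc22a26, Slc22a27, Slc22a28, Slc22a29 and Slc22a30 are neighbouring genes on the minus strand of chromosome 19, within a branch of putative organic anion carriers that has expanded in rodents. Slc22a28 and Slc22a30 transcripts are 98.8% identical over 2005 bases and those of Slc22a27 and Slc22a29 are 96.8% identical over 2088 bases, so reads can be split between the copies and single values of these 4 genes are uncertain. The Slc22a26 transcript matches the others at 73.5% to 74.0% identity, but its closest match is AC115715.1, a pseudogene on the same chromosome, at 92.5% over 1275 bases (44% of the transcript), so its reads can also be split. The 250 bases before the start of 4 of these genes are shown, chosen with their values known. Slc22a28 and Slc22a30 were taken for their nearly equal promoters, and Slc22a26 and Slc22a27 for their similar patterns over the libraries. Whether these sequences bear on the levels was not tested. The sequences are from RefSeq on GRCm38.p6, minus strand, 5′ to 3′, at chr19:7802668-7802917 for Slc22a26, chr19:7966028-7966277 for Slc22a27, chr19:8131983-8132232 for Slc22a28 and chr19:8405106-8405355 for Slc22a30. Capitals mark a match to TTCNNNGAA in Slc22a26, and in Slc22a28 and Slc22a30 the bases that differ or have no partner when the pair are aligned.
Slc22a26: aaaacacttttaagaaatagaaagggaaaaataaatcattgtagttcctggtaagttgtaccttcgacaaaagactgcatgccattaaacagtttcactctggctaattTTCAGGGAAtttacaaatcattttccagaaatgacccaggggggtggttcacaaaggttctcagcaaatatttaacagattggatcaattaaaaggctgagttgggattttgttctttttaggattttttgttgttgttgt
Slc22a27: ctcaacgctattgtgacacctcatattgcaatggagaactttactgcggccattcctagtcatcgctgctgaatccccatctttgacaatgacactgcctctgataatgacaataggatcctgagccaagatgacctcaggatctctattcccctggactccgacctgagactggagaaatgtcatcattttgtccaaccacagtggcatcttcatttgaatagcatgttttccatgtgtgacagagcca
Slc22a28: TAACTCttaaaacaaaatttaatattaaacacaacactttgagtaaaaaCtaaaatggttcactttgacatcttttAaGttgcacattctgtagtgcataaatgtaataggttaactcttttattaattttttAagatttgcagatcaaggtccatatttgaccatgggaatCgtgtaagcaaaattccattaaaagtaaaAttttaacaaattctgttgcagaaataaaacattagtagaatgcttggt
Slc22a30: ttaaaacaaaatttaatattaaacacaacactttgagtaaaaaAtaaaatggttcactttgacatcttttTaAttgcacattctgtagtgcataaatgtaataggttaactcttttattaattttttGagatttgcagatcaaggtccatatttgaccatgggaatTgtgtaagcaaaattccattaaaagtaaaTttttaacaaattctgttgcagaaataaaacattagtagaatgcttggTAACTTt
The Slc22a28 and Slc22a30 windows were 93.0% identical, with 6 substitutions and 6 bases in each without a partner, whereas Slc22a26 and Slc22a27 were 50.9% identical. TTCNNNGAA is the core bound by STAT5, the factor through which growth hormone acts in liver, and its match in Slc22a26 begins 141 bases before the start. The match is a description of letters only. On both strands the motif was found in 7.02% of 32851 promoter windows of the annotation, and none was found in the other 3 windows shown. Of the 84 windows of transporter genes, 8 held it (9.52%). Of the other motifs searched, ATTGAT, the HNF6 and CUX2 core, was found in Slc22a26 on the opposite strand. In the printed sequence it reads ATCAAT, beginning 58 bases before the start. AGGTCA, a nuclear receptor half-site, was found in Slc22a27, also on the opposite strand. As printed it reads TGACCT, beginning 119 bases before the start. These 2 motifs were in 6.72% and 14% of all promoter windows, and in 4.76% and 13.1% of those of transporter genes. They too describe letters only.

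Slc22a26 (ENSMUSG00000053303, chromosome 19, 7781041 to 7802667, GRCm38) had 106, 1.07 and 0.290 FPKM in DKO 1 to 3 and 0.140, 33.8 and 19.2 FPKM in p21TKO 1 to 3. Every library without Y-linked reads was high, and the lowest of them was 17.9 times the highest library with such reads. Slc22a27 (ENSMUSG00000067656, chromosome 19, 7864388 to 7966027) had 20.3, 0.324 and 0.0836 FPKM in DKO and 0.0480, 6.68 and 7.38 FPKM in p21TKO. It split the libraries in the same way, by 20.6 times at the gap. Slc22a29, under the filter, was highest in DKO 1 (1.06 FPKM) and between 0.0227 and 0.422 FPKM elsewhere, and its values overlapped between libraries with and without Y-linked reads.

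Slc22a28 (ENSMUSG00000063590, chromosome 19, 8062209 to 8131982) ran the other way, with 0.228, 4.24 and 3.84 FPKM in DKO and 6.78, 0.0217 and 0 FPKM in p21TKO. Libraries with Y-linked reads were high and the rest near 0, where 3 reads in p21TKO 3 would have given 0.0553 FPKM. Slc22a30 (ENSMUSG00000052562, chromosome 19, 8335371 to 8405111) had 30.0, 38.5 and 42.6 FPKM in DKO and 44.6, 7.41 and 1.74 FPKM in p21TKO. DKO 1 was close to the libraries with Y-linked reads for Slc22a30, although it was near 0 for Slc22a28. Slc22a28 made up 8.27% to 13.2% of the sum of the pair in libraries with Y-linked reads and 0% to 0.755% in the others.

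**Figure D3:**
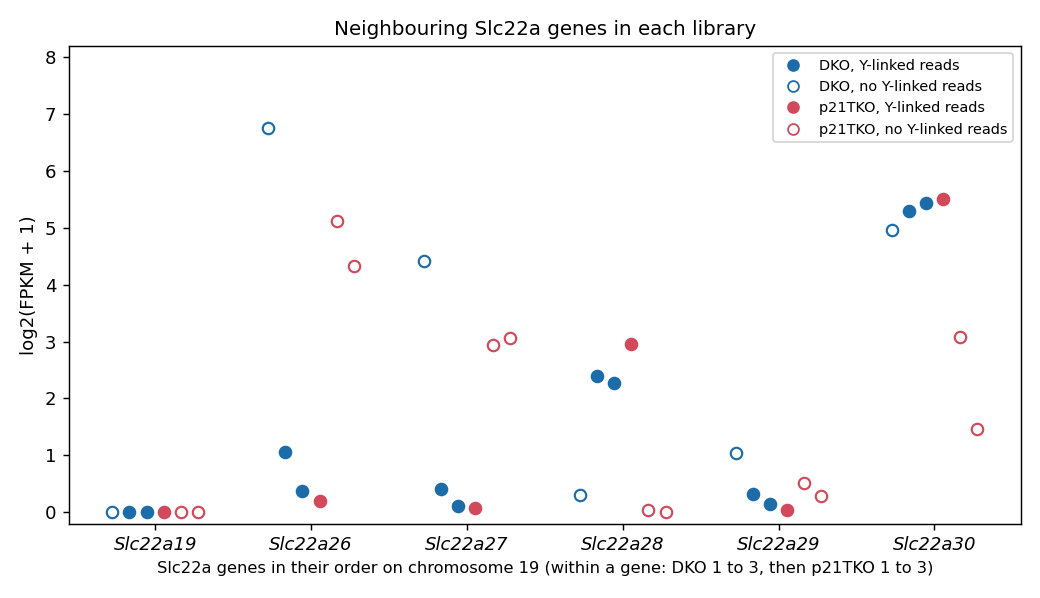
Points give log2(FPKM + 1) of Slc22a genes on chromosome 19 in their genome order, 1 point per library, in the colours and fillings of the plot of levels by role. Slc22a26 and Slc22a27 are high in the 3 open points, Slc22a28 in the 3 filled points, and Slc22a30 is low in p21TKO 2 and 3 only.

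The term for Y-linked reads, fitted beside genotype and read after the values had been seen, passed for 3 of the 43 tested transporter genes (6.98%), beside 0.419% of all tested genes. Slc22a26 was lower in libraries with Y-linked reads by -5.29 on the log2 scale (SE 0.42, limma adjusted p = 0.00628). Slc22a27 was lower by -3.54 (SE 0.29, limma adjusted p = 0.00629), and Slc22a28 was higher by 2.49 (SE 0.24, limma adjusted p = 0.0106). All 3 also passed with limma voom on recovered reads. The filter decides this count, since 0 passed when all genes with any value were tested. Values of 10 of the 43 (23.3%) did not overlap between libraries with and without Y-linked reads, beside 17.9% of all tested genes. Slco1a1, Abca8a, Slc22a30 and Slc22a28 were the 4 higher with Y-linked reads, and Slco1a4, Abcb1a, Slc22a26, Slc22a27, Abcd2 and Abcd4 the 6 lower.

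**Figure D4:**
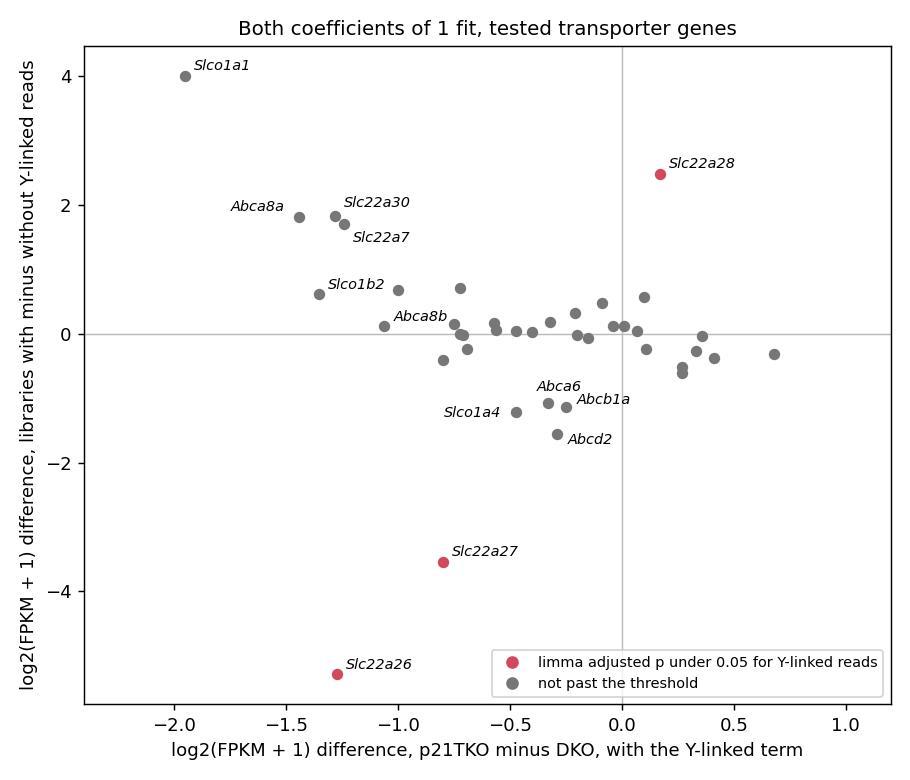
Each point is a tested transporter gene (40 of the 43), with the genotype log2 difference on the x axis and the log2 difference between libraries with and without Y-linked reads on the y axis, both from 1 fit. Slc22a26 (-5.29), Slc22a27 (-3.54) and Slc22a28 (2.49), in red, passed the limma test on the y axis, and no gene passed on the x axis.

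Slc22a7, the organic anion carrier OAT2, had 25.2, 24.8 and 20.5 FPKM in DKO and 35.1, 3.71 and 0.967 FPKM in p21TKO. p21TKO 1 was the highest of all libraries and p21TKO 2 and 3 were far under DKO, so the groups overlapped. Its log2 difference was -3.11 within libraries without Y-linked reads and 0.62 within those with them, and the interaction did not pass (limma adjusted p = 0.187). Slc22a23, a member of unassigned substrate, was lower in every p21TKO library, with 19.2, 15.1 and 20.1 FPKM in DKO and 14.0, 12.0 and 11.8 FPKM in p21TKO. Slc22a18, an imprinted gene in several tissues, had 44.5, 47.0 and 42.9 FPKM in DKO and 48.2, 41.4 and 23.0 FPKM in p21TKO, where p21TKO 3 was low.

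Most canalicular efflux pumps stood lower in p21TKO, and none passed. Of 7 genes 6 were tested, 5 had a log2 difference below 0, and in 4 the p21TKO values all lay below the DKO values, beside 8.49% of all tested genes. Abcc2 (ENSMUSG00000025194, chromosome 19, 43782192 to 43840740), the pump for bilirubin glucuronides and other conjugates, had 62.7, 48.6 and 69.7 FPKM in DKO and 37.7, 33.4 and 37.5 FPKM in p21TKO. All p21TKO libraries, p21TKO 1 included, lay together under the lowest DKO library, with means of 60.3 ± 10.7 and 36.2 ± 2.44 FPKM (SD, n = 3 each). The log2 difference of -0.71 (SE 0.23, limma adjusted p = 0.523) was -0.81 within libraries without and -0.61 within libraries with Y-linked reads.

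Abcg5 and Abcg8 form 1 pump for cholesterol and plant sterols and lie next to each other on chromosome 17. Abcg5 had 56.0, 36.2 and 31.4 FPKM in DKO and 29.1, 23.3 and 25.2 FPKM in p21TKO, and Abcg8 had 42.0, 23.8 and 23.9 FPKM in DKO and 17.6, 18.5 and 17.7 FPKM in p21TKO. DKO 1 was the highest library for both, and neither gene overlapped between genotypes. Abcg5 made up 55.8% to 62.4% of the pair in every library. Abcb4, the phosphatidylcholine floppase, had 20.8, 19.8 and 26.5 FPKM in DKO and 18.8, 14.9 and 16.6 FPKM in p21TKO, with a narrow gap between the groups.

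Abcg2 and Abcb1a, canalicular drug pumps, overlapped between the genotypes. Abcg2, the breast cancer resistance protein, had 2.97, 4.78 and 8.92 FPKM in DKO and 5.32, 5.21 and 3.74 FPKM in p21TKO. Abcb1a, a P-glycoprotein gene named after its values were seen, had 2.72, 0.797 and 0.903 FPKM in DKO and 0.424, 2.04 and 2.87 FPKM in p21TKO. Its 3 highest libraries were those without Y-linked reads. Abcb1b, its near copy with 87.2% transcript identity over 4032 bases, was under the filter and untested, with 0.0573, 0.0756 and 0.146 FPKM in DKO and 0.207, 0.273 and 0.296 FPKM in p21TKO. At these low levels every p21TKO value lay above every DKO value.

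Of 7 efflux pumps of the basolateral membrane and related ABCC genes, 3 were tested. In all 3 every p21TKO value lay below every DKO value, beside 8.49% of all tested genes, and none passed. Among the untested genes the means of Abcc1, Abcc4 and Abcc5 were higher in p21TKO and that of Abcc12 was lower. Abcc3, which returns glucuronides to blood, had 37.9, 36.3 and 32.5 FPKM in DKO and 29.2, 25.1 and 25.5 FPKM in p21TKO. Abcc6, whose loss causes ectopic mineralisation, had 22.3, 19.1 and 20.3 FPKM in DKO and 17.6, 9.27 and 3.05 FPKM in p21TKO. Abcc3 differed by little and evenly, while Abcc6 was spread over the p21TKO libraries with p21TKO 1 next to DKO. Abcc10 was near the filter, with 1.14 to 1.23 FPKM in DKO and 0.801 to 0.943 FPKM in p21TKO. Abcc4, a basolateral pump known to rise in cholestasis, was under the filter with 0.476, 0.131 and 0.169 FPKM in DKO and 0.0727, 0.873 and 1.36 FPKM in p21TKO, highest in the libraries without Y-linked reads. Abcc9, a potassium channel subunit, overlapped between genotypes at 1.40 to 2.45 FPKM in DKO and 2.34 to 3.21 FPKM in p21TKO. The 9 stellate cell and fibroblast markers summed to 20.6 to 31.8 FPKM in DKO and 35.9 to 42.9 FPKM in p21TKO. The sum was mostly Dcn (17.2, 7.28 and 10.2 FPKM in DKO and 13.6, 30.0 and 31.1 FPKM in p21TKO), and of the 6 tested markers 3 had a log2 difference above and 3 below 0. Col3a1 was among the latter, with 1.36 to 1.60 FPKM in DKO and 2.05, 0.581 and 0.132 FPKM in p21TKO. The part of these markers in Abcc9 was not tested.

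In the ABCA group of lipid transporters, 6 of 16 genes were tested. Abca8a and Abca8b, neighbours on chromosome 11, were both low in p21TKO 2 and 3. Abca8a had 16.1, 24.8 and 24.0 FPKM in DKO and 21.4, 2.53 and 0.984 FPKM in p21TKO, and Abca8b had 11.2, 7.14 and 8.41 FPKM in DKO and 5.34, 4.48 and 1.70 FPKM in p21TKO. p21TKO 1 was within the DKO range for Abca8a and under it for Abca8b. Abca6, in the same cluster, did not follow, with 35.7, 10.9 and 39.6 FPKM in DKO and 12.8, 44.1 and 29.3 FPKM in p21TKO.

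Abca2, a lysosomal lipid transporter, was lower in every p21TKO library, with 5.86, 4.70 and 5.14 FPKM in DKO and 3.55, 2.84 and 1.62 FPKM in p21TKO, a log2 difference of -0.80 (SE 0.23) short of the limma threshold (adjusted p = 0.523). Abca1, which exports cholesterol to apolipoprotein A-I, overlapped with 12.9, 11.6 and 16.4 FPKM in DKO and 10.9, 11 and 15.5 FPKM in p21TKO. Abca3, the phospholipid transporter of lamellar bodies, had 7.06, 2.74 and 5.84 FPKM in DKO and 7.26, 11.5 and 5.03 FPKM in p21TKO. Both genotypes thus shared the range of Abca1, and p21TKO 2 was the highest library for Abca3. Abca3 and Abcf1 lie within 15 Mb of Cdkn1a on chromosome 17 (4.7 and 6.9 Mb away), as do Abcg1 and Abca17 under the filter, and neither tested gene passed.

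The peroxisomal ABCD genes import fatty acyl groups. Abcd3, the most abundant, had 56.5, 57.4 and 78.0 FPKM in DKO and 56.2, 25.8 and 22.4 FPKM in p21TKO. p21TKO 1 lay within a hair of DKO 1 and the other p21TKO libraries were far lower, so the absence of overlap rests on a gap of 1.01 times. Abcd2, a peroxisomal very long-chain fatty acid transporter, named after its values were seen, had 9.98, 1.18 and 1.01 FPKM in DKO and 2.06, 2.33 and 6.58 FPKM in p21TKO. Abcd4, which serves cobalamin in lysosomes, had 1.39, 1.21 and 1.14 FPKM in DKO and 0.903, 2.75 and 3.18 FPKM in p21TKO. Both were higher in all libraries without Y-linked reads.

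Of the mitochondrial ABCB genes, Abcb8 had 6.44, 8.11 and 6.08 FPKM in DKO and 6.83, 5.73 and 6.66 FPKM in p21TKO. Abcb10, needed for haem synthesis, had 4.17, 5.09 and 7.87 FPKM in DKO and 5.76, 5.77 and 2.66 FPKM in p21TKO. Both overlapped between the genotypes.

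Of the 4 ribosome-associated ABCE and ABCF genes, 3 had a log2 difference above 0 and none passed. Their summed level was 44.1 to 52.9 FPKM in DKO and 46.7 to 66.0 FPKM in p21TKO. Abcf2 had 11.9, 9.15 and 12.9 FPKM in DKO and 9.89, 17.5 and 21.4 FPKM in p21TKO, and Abcf3 had 8.19, 7.90 and 12.5 FPKM in DKO and 10.5, 12.5 and 14.4 FPKM in p21TKO. Both were highest in p21TKO 3 and overlapped. Abcf1 (13.4 to 18.0 FPKM) and Abce1, which splits ribosomes for reuse (9.61 to 12.9 FPKM), also overlapped.

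**Figure D5:**
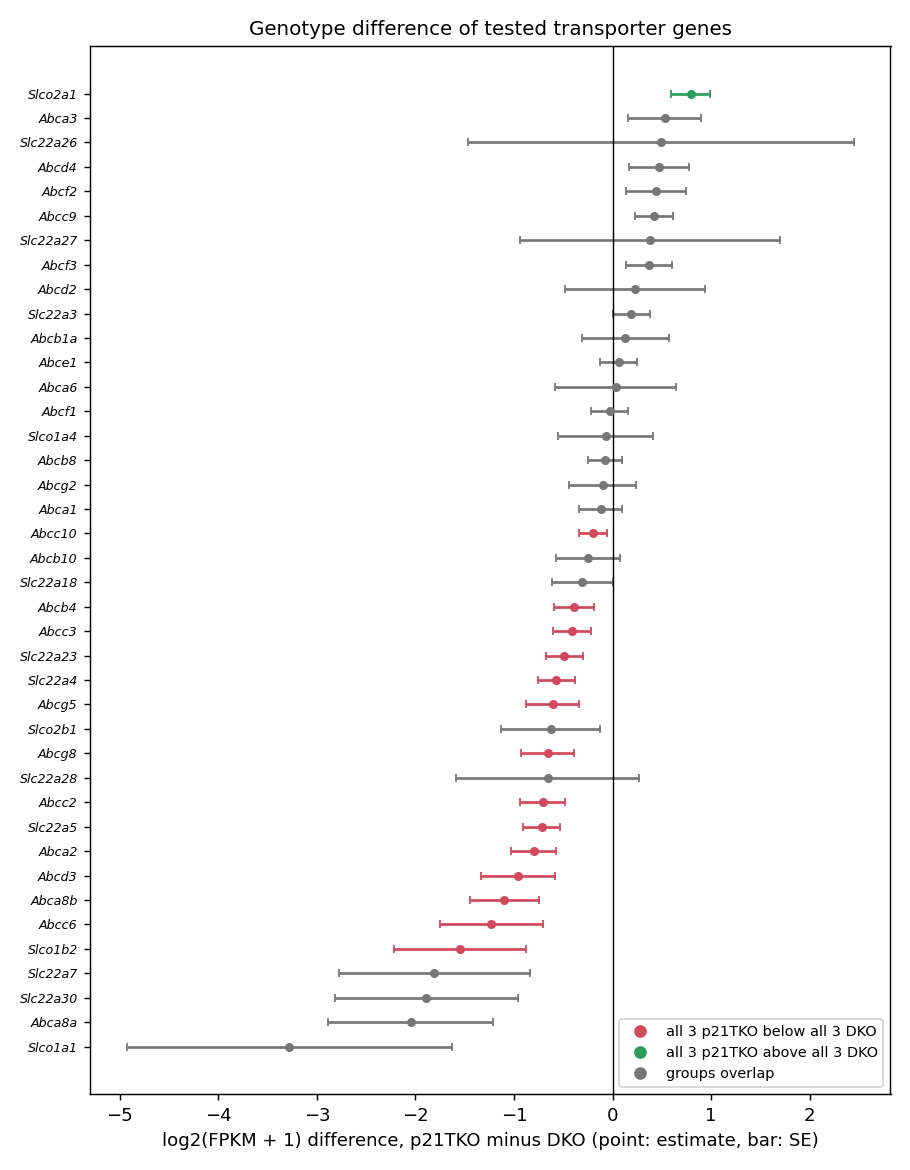
Points give the log2(FPKM + 1) difference of 40 of the 43 tested transporter genes, p21TKO minus DKO, with its SE as bars and the colour showing whether the groups overlap. Of these 14 lie in red on the lower side, Slco2a1 in green on the higher side, and none passed the limma test.

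p21TKO 1 set how many genes passed. Without it, 6 transporter genes passed (14.0% of 43), beside 5.19% of all tested genes. Slco1a1 fell by 5.29 (SE 0.64, limma adjusted p = 0.0131), Abca8a by 3.07 (SE 0.32), Slc22a7 by 3.00 (SE 0.37), Slc22a30 by 2.97 (SE 0.47) and Abcd3 by 1.36 (SE 0.25) on the log2 scale, and Abcd4 rose by 0.82 (SE 0.15, limma adjusted p = 0.0374). p21TKO 1 is the p21TKO library with Y-linked reads and without the high acute phase level, so this comparison sets 1 DKO library against both p21TKO libraries without Y-linked reads, and 2 DKO libraries with them have no p21TKO partner. Genotype, Y-linked reads and the acute phase level cannot be told apart in it.

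Genes around the transporters were read from lists that hold their regulators, carriers of the same routes and membrane partners. All 18 regulators were tested and 0 passed by limma (1 at an unadjusted p under 0.05), with 8 above and 10 below 0. Nr1h4, the bile acid receptor FXR, had 51.4, 55.3 and 58.3 FPKM in DKO and 44.5, 36.7 and 49.9 FPKM in p21TKO, with every p21TKO library lower. Hnf4a, a master factor of hepatocyte genes, was higher in every p21TKO library, at 118 to 147 FPKM in DKO and 151 to 164 FPKM in p21TKO. Nfe2l2, named after its values were seen, was lower in every p21TKO library, at 11.1 to 13.2 FPKM in DKO and 8.63 to 9.81 FPKM in p21TKO. These were the 3 of 18 regulators whose groups did not overlap, beside 15.4% of all tested genes. Cebpa, another hepatocyte factor, had 165, 211 and 128 FPKM in DKO and 175, 87.2 and 46.7 FPKM in p21TKO, low in the same libraries as Slco1a1 and Slc22a7. Cux2, a repressor known from female liver and named after its values were seen, had 3.27, 0.00461 and 0 FPKM in DKO and 0, 0.873 and 2.86 FPKM in p21TKO, present only in libraries without Y-linked reads apart from 1 read.

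Of 10 other hepatic transporters 8 were tested, 7 were below 0 and 0 passed by limma (1 at an unadjusted p under 0.05). Slc47a1, the canalicular cation exchanger MATE1, had 36.8, 24.8 and 25.9 FPKM in DKO and 17.4, 12.8 and 7.79 FPKM in p21TKO, with no overlap and a log2 difference of -1.19 (SE 0.32) that missed the limma threshold (adjusted p = 0.515). Slc10a1, the sodium-dependent bile acid carrier, had 344, 183 and 319 FPKM in DKO and 143, 256 and 184 FPKM in p21TKO, and overlapped. Abcb11, the bile salt export pump, had 78.7, 47.1 and 65.4 FPKM in DKO and 47.9, 55.3 and 12.1 FPKM in p21TKO, with p21TKO 3 low as for Slco1b2. All 8 scaffold and membrane partners were tested, 4 were above and 4 below 0, and 0 passed by limma, also at an unadjusted p under 0.05. Rdx, radixin, which ties canalicular pumps to actin, had 39.4, 29.8 and 47.9 FPKM in DKO and 31.3, 22.2 and 19.9 FPKM in p21TKO.

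The other 47 transporter genes were under the filter. Of these 14 were at 0 in every library, where 3 reads would have given 0.00749 to 0.0774 FPKM depending on gene and library, and 18 had reads but at most 11 in a library. The other 15 reached 20 reads or 0.5 FPKM in a library: Slco3a1, Abcc1, Abcc4, Abcc5, Abcb1b, Abcb6, Abcb9, Abca5, Abca7, Abca9, Abcg1, Abcg3, Slc22a15, Slc22a21 and Slc22a29. Abcg1, the macrophage cholesterol exporter, had 0.411, 0.236 and 0.203 FPKM in DKO and 0.269, 0.764 and 0.841 FPKM in p21TKO. It was high in p21TKO 2 and 3. The summed Kupffer cell markers were also high there. They had 53.7 to 124 FPKM in DKO and 40.4, 370 and 202.5 FPKM in p21TKO 1 to 3. Not every marker was high in p21TKO 3. Clec4f had 11.2 FPKM there and 20.1 FPKM in DKO 1, Cd5l 15.8 and 24.9 FPKM, and Adgre1 0.97 and 1.56 FPKM. Csf1r had 3.83 FPKM in both libraries. Marco, Vsig4, C1qa, C1qb, C1qc and Timd4 were higher in p21TKO 3 than in every DKO library. The part of these markers in Abcg1 was not tested. The renal carriers Slc22a6 and Slc22a8 had at most 2 reads in a library.

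Several of the 15 were higher in p21TKO 2 and 3 than in every other library, against the direction of most tested transporter genes. Abcc1, a widely expressed conjugate pump, had 0.0662, 0.0216 and 0.0388 FPKM in DKO and 0.0274, 0.136 and 0.0784 FPKM in p21TKO. Abcc5, which exports cyclic nucleotides and haem, had 0.121, 0.178 and 0.143 FPKM in DKO and 0.203, 0.400 and 0.377 FPKM in p21TKO. Both pumps thus peaked in p21TKO 2, and for Abcc5 all p21TKO values lay above all DKO values. Abca5 (0.419 to 0.602 FPKM in DKO and 0.479, 1.24 and 0.743 FPKM in p21TKO) and Abca7, a relative of Abca1 (0.5 to 0.647 FPKM in DKO and 0.581, 1.07 and 0.711 FPKM in p21TKO), had the same order. Abcg3 reached 0.933 FPKM in p21TKO 2 and was 0.114 to 0.340 FPKM elsewhere. Abcb6, a mitochondrial porphyrin transporter, was lower in every p21TKO library, with 0.368, 0.420 and 0.669 FPKM in DKO and 0.311, 0.295 and 0.216 FPKM in p21TKO. Slco3a1, an SLCO gene of broad tissue range, was higher in every p21TKO library, with 0.260, 0.203 and 0.106 FPKM in DKO and 0.347, 0.576 and 0.392 FPKM in p21TKO. Abca9 (0.231 to 0.785 FPKM), Abcb9 (0.223 to 0.433 FPKM) and Slc22a15 (0.387 to 0.673 FPKM) completed the group. None of these genes entered the test.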

How the data were processed

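Liver polyA RNA was sequenced in 6 libraries, 3 DKO and 3 p21TKO, from TRIzol RNA and NEBNext Ultra libraries per the labels' protocols. The authors deposited 1 table of FPKM values per gene and library. The submitters' processing notes name the tools DESeq2 1.20.0, featureCounts 1.5.0-p3, HISAT2 2.0.5, fastp and CASAVA 1.8. They also name human genome builds (hg38, GRCh38) although the gene identifiers are mouse, which leaves the authors' build unsettled. Whether counting used strand is not stated. GENCODE M21 (GRCm38) gave coordinates for 55480 of 55573 genes.

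FPKM times exon length gave whole reads within 0.02 for at least 99.29% of values per library, and for all 90 transporter genes. Tests used log2(FPKM + 1), a mean of at least 1 FPKM, and limma 3.58.1 (R 4.3.3, mean-variance trend, two-sided) with Benjamini-Hochberg adjustment over all tested genes, checked on simulated data. Limits from 3 reads cover counting error only.

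The members, lists and tests were chosen with earlier results of these data known. Library values are given for transporter genes with a mean of at least 5 FPKM, with groups that do not overlap, or with the 5 smallest limma p-values in each direction, and for up to 4 more per role. Some genes that this rule takes are not reported here. Outside it, values of Slc22a28, Abcb1a, Abcd2, Cux2, Nfe2l2, single marker genes and the genes under the filter are given, chosen after their values were seen. Reading the Y-linked coefficient and its interaction was added after values were seen. Alternatives changed the pseudocount, filter, scaling, variance model, replicate block, read-count test, Y-linked term and each library. RefSeq promoters of GRCm38.p6 were matched by symbol for 72 of the 90 genes and searched for 5 motifs. Transcripts were compared with BLAST 2.17.0 (e-value 1e-20) and promoters with Biopython 1.88 under Python 3.11.15, and figures were drawn with matplotlib 3.10.9.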

Additional observations from a re-analysis of the deposited data

How the results depend on the processing

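The count of 0 transporter genes called held under every alternative run except leaving out p21TKO replicate 1 (0 to 6 over the libraries left out). The count of all genes called, 7, was 1 with no filter, 4 at a mean of at least 5 FPKM, 2 with limma voom and 1 to 495 with 1 library left out, 495 without p21TKO replicate 1. Same-numbered libraries did not deviate together (correlations of -0.439, -0.487 and -0.072). Each such pair joins a library with Y-linked reads to one without, so these correlations cannot show whether the numbers pair anything. A replicate block gave 0 genes called in all and 0 transporter genes. The median log2 difference of transporter genes was -0.01 with no filter, which adds genes near 0, and -0.47 to -0.19 with 1 library left out, weakest without p21TKO replicate 3. Genes with groups that do not overlap numbered 18 to 26 with 1 library left out, where fewer values make separation easier. Transporter genes called for Y-linked reads numbered 0 with no filter and 2 to 6 with 1 library left out, 6 without DKO replicate 1 and 2 without DKO replicate 2.

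Of 606 gene values under alternatives 567 kept their direction and side of the threshold, and 10 of 39 genes changed direction at least once. With the term for Y-linked reads the log2 difference was -1.27 for Slc22a26, -0.80 for Slc22a27, -0.33 for Abca6, 0.10 for Abcg2 and 0.01 for Abcf1. Abca6 was also -0.02 without mitochondrially encoded genes in the total and -0.01 with limma voom. With 1 library left out the ranges were -0.68 to 2.51 for Slc22a26, -0.38 to 1.77 for Slc22a27, -0.54 to 0.50 for Abca6, -0.41 to 0.25 for Abcg2, -0.11 to 0.06 for Abcf1, -0.38 to 0.37 for Slco1a4, -0.04 to 0.17 for Abce1, -0.16 to 0.03 for Abcb8, -0.28 to 0.01 for Abca1 and -0.42 to 0.05 for Abcb10. The cause was not tested. Differences among the 47 genes under the filter were not tested, since 14 of them had 0 reads and 18 others at most 11 in a library.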
